A study of Mus musculus with 6 samples.

Results

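The genes described here are 37 interferon-stimulated genes, chosen by name with earlier results of these data known. Each of the 37 genes matched 1 row by symbol among the 15553 genes of the deposited table. Their RNA was compared between sorted bone marrow stem and progenitor cells of Yy1 knockout and wild-type mice, in a study whose title concerns the transcription factor YY1 and the quiescence of hematopoietic stem cells. The 3 knockout libraries came from Yy1f/f;Mx1-Cre mice, in which both copies of Yy1 are flanked by loxP sites, and the 3 wild-type libraries from Mx1-Cre mice, labelled without a floxed allele. All mice were C57BL/6 and 6 to 8 weeks old, and all carried the Mx1-Cre transgene. The cells were sorted from marrow as lineage-negative, Sca1-positive and c-Kit-positive cells, with CD48-negative, CD150-positive and CD150-negative gates named in the protocol and the CD150-positive gate alone in the source field. The labels give neither the agent used to induce Cre nor the interval between induction and sorting, and they do not say whether each library came from its own mouse, so a p-value here speaks only for the scatter among 6 libraries, and some of that scatter may be technical.

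Interferons are cytokines released when cells detect foreign nucleic acid. Type I interferon binds the IFNAR receptor, whose kinases JAK1 and TYK2 phosphorylate STAT proteins. STAT2 joins IRF9 in the factor ISGF3, which binds interferon-stimulated response elements in the promoters of many antiviral genes. Hematopoietic stem cells are known to hold some of these genes at a constant level and to leave rest on exposure to interferon. Mx1-Cre is itself driven by an interferon-inducible promoter, and both genotypes carry it, so any inducing treatment given to both cannot be told apart from other sources of interferon signalling within a genotype.

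The response element is shown first because it recurs in these promoters. RefSeq promoter windows (GRCm38.p6, 250 bases before to 50 after a start) were found for 29 of the 37 genes and searched on both strands for the element's core, which is GAAA, then 2 bases of any kind, then GAAA. The core was present in 12 of the 29 genes (41.4%), against 3.93% of the 8423 genes tested here that had a window and 3.44% of all 32851 windows. A longer form, the core followed by CT, so that each match contains the core, was present in 6 of the 29 (20.7%), against 0.487% of the tested genes and 0.271% of all windows. A match is a run of letters and not a shown binding site, and no match says only that these letters are not in the window. The 250 bases before the start are given for 4 genes, chosen after their values were seen: Ifit1 and Oas3, which were higher in knockout libraries at an unadjusted p under 0.05, and Isg15 and Rsad2, which carry the core and were not. Capitals mark the core, and where it lies on the other strand they show its reverse complement.
Ifit1, chr19:34640639-34640888, plus strand: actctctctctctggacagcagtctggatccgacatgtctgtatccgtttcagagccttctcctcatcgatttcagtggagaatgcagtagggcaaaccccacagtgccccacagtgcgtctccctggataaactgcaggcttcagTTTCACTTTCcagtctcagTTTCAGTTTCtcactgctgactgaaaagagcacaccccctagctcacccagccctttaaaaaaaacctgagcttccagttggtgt
Oas3, chr5:120777660-120777909, minus strand: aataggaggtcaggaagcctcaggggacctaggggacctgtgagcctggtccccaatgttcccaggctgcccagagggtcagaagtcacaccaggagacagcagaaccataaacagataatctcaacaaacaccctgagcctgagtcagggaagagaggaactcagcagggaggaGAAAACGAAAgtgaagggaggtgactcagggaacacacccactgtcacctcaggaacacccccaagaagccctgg
Isg15, chr4:156200819-156201068, minus strand: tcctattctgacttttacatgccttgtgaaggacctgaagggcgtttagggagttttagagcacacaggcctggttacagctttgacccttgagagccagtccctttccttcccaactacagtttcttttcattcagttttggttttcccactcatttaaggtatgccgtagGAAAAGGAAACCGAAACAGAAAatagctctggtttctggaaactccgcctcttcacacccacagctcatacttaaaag
Rsad2, chr12:26456453-26456702, minus strand: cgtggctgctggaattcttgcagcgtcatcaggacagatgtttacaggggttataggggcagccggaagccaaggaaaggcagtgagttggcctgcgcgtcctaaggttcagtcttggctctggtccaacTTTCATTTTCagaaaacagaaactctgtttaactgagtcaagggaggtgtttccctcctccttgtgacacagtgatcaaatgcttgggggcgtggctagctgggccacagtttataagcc

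The Ifit1 window held the core 2 times, and the Isg15 window held it 3 times in overlapping copies. Oas3 and Rsad2 had 1 match each before the start. The core was therefore carried both by genes with high and by genes with negative fold changes. The 12 genes with a match had a median knockout to wild-type log2 fold change of 0.31, with a range of -0.74 to 1.29. The 17 genes without one had a median of 0.27, with a range of -1.20 to 1.45. The 8 genes without a window could not be searched, and had a median of 0.75, with a range of 0.15 to 1.50. Of these 8, 3 were higher at an unadjusted p under 0.05, against 4.73% of all tested genes. The relation of the core to the fold change was not tested.

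**Figure D1:**
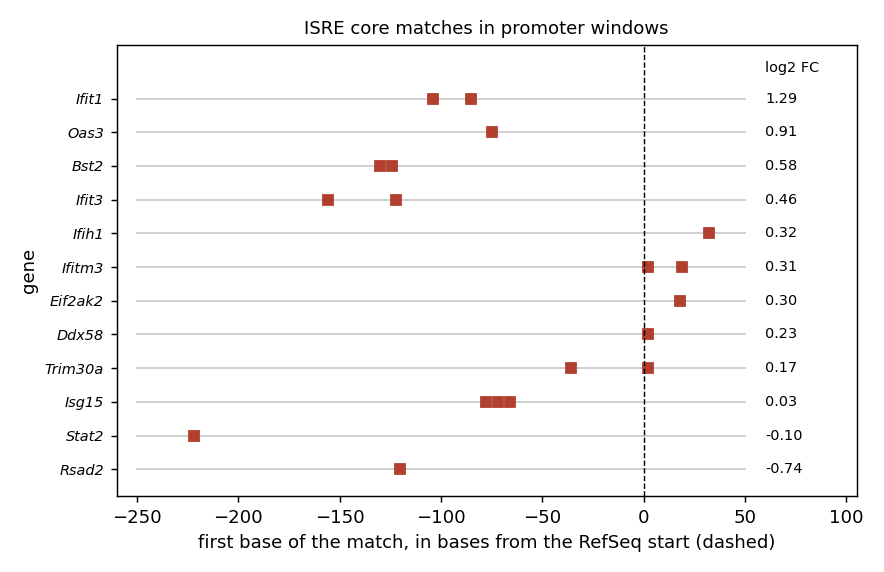
Position of each match to the response element core in the promoter windows of the 12 genes that had one. The x axis gives the first base of the match in bases from the RefSeq start, grey lines are the windows, squares are matches, and the column at the right is the log2 fold change, knockout to wild type. Trim30a is drawn from 2 windows of different starts. Ifit1, at 1.29, and Rsad2, at -0.74, both carried a match upstream of the start.

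Levels are given as RPKM, reads scaled for gene length and library depth, which can be compared between genes. Fold changes come from limma on log2(RPKM + 0.5) and are knockout over wild type, so they understate the difference of thinly covered genes. All 37 genes passed the filter of at least 1 RPKM in at least 3 libraries. None passed the Benjamini-Hochberg adjusted threshold of 0.05, and neither did any of the 13179 genes tested (0%), while 1027 of them (7.79%) had an unadjusted p under 0.05. In limma-voom on reads recovered from the RPKM values, 6 of 13114 genes passed (0.0458%), and 0 of the 37, while 7 of the 37 were higher at an unadjusted p under 0.05 (background 5.54%). The authors' deposited table called 24 of 15553 genes at an adjusted p under 0.05 (0.154%), and 0 of the 37.

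Most of these 37 genes, chosen with earlier results of these data known, lay a little above wild type in knockout cells. In a second list of interferon-stimulated genes, given below, 31 of 60 lay above 0, with a median log2 fold change of 0.02. The log2 fold change was above 0 for 31 of the 37, against 51.9% of all tested genes, and its median was 0.32, against 0.02 over all tested genes. At an unadjusted p under 0.05 there were 7 of the 37 genes higher in knockout (Irf7, Ifit1, Oas2, Oas3, Usp18, Ifi27 and Lgals3bp), where the background is 4.73% of all tested genes. None of the 37 was lower at that threshold, where the background is 3.06%. All 3 knockout libraries lay above all 3 wild-type libraries for 9 of the 37, against a background of 7.63%, and below them for 1, Ifit2, against 6.87%. The number higher at an unadjusted p under 0.05 was 4 without Yy1 knockout replicate 2 (background 3.29%) and 3 without Yy1 knockout replicate 3 (background 2.86%), with 1 gene lower in each case. In the authors' deposited table, 7 of the 37 were higher at an unadjusted p under 0.05 (background 4.61%) and 1, Irf1, was lower (background 3.41%).

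Summed over the 37 genes, the level was 848, 961 and 1119 RPKM in knockout replicates 1 to 3 and 664, 741 and 882 RPKM in wild-type replicates 1 to 3. The sums of the genotypes overlap, since knockout replicate 1 lies below wild-type replicate 3, and Ifitm3 is the largest single term in each sum. Taken gene by gene against the wild-type mean, the median over the 37 genes was 0.31, 0.40 and 0.42 on the log2 scale in the knockout libraries and 0.02, 0.01 and 0.07 in the wild-type libraries. Over all tested genes, the same median was 0.03, 0.07 and 0.04 in knockout and 0.02, 0.04 and -0.02 in wild type. Knockout replicate 3 was the highest of the 6 libraries for 14 of the 37 genes, against 17.7% of all tested genes. Each of the 3 wild-type libraries was the lowest for 9 of the 37 (24.3%), where the shares over all tested genes were 18.7%, 11.8% and 25.9% for wild-type replicates 1 to 3, so that of replicate 3 was near its background.

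**Figure D2:**
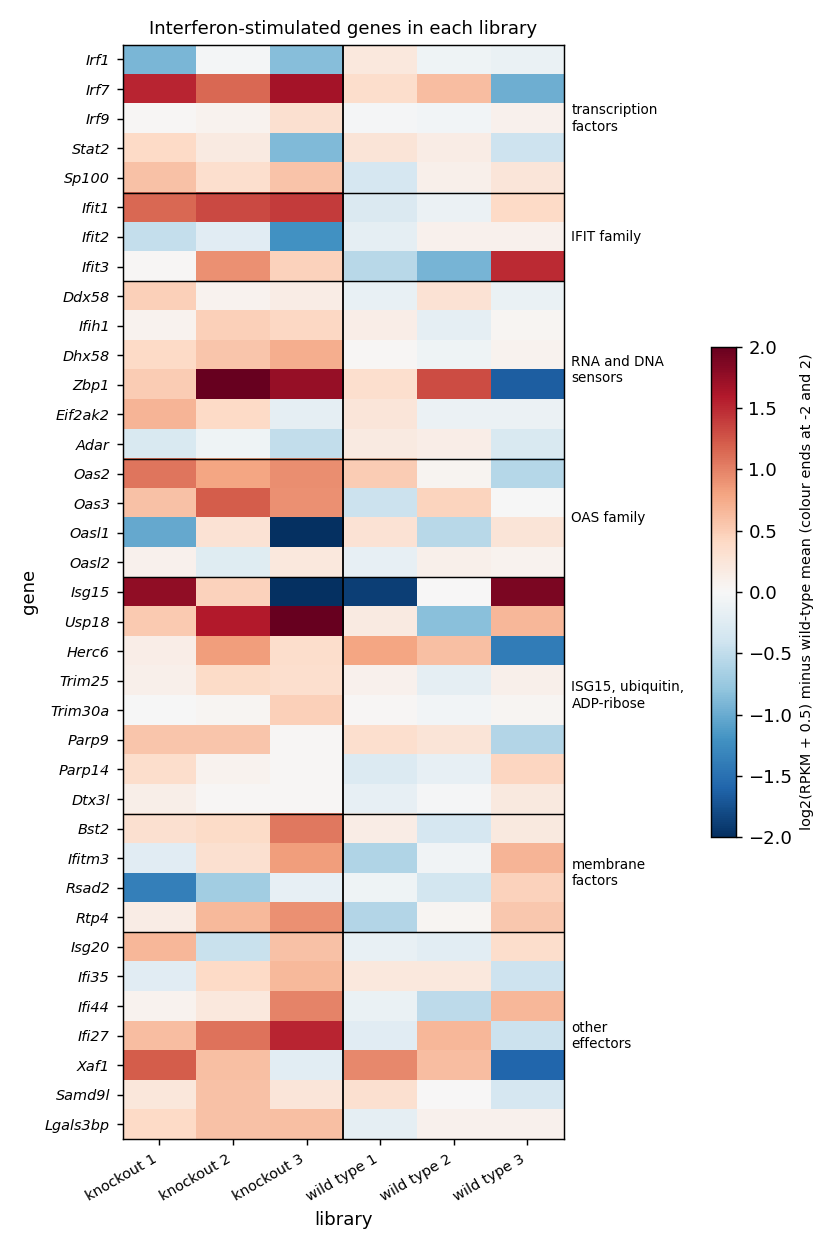
Each of the 37 genes (rows, grouped by role) in each library (columns, knockout replicates 1 to 3 then wild-type replicates 1 to 3), as log2(RPKM + 0.5) minus the gene's wild-type mean; red is above that mean, blue below it, and the colours end at -2 and 2. Irf7, Ifit1 and Oas2 are red in every knockout library, Irf1 and Rsad2 are blue in knockout replicate 1, and Isg15 comes near both ends of the colour scale within each genotype.

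Among the transcription factors, Irf7 had the largest fold change, and Irf9 and Stat2 lay close to wild type. IRF7 is the factor that amplifies type I interferon production once signalling has begun. Irf7 (ENSMUSG00000025498, chromosome 7: 141262706 to 141266481) stood at 15.8, 12.1 and 17.4 RPKM in knockout libraries and at 6.71, 8.20 and 2.37 RPKM in wild-type libraries. The groups did not overlap, and wild-type replicate 3 was the lowest of the 6. The means were 15.1 ± 2.73 RPKM in knockout and 5.76 ± 3.03 RPKM in wild type (SD, n = 3 each, as for every mean here). The log2 fold change was 1.45 ± 0.45 (SE, unadjusted p = 0.0139, limma adjusted p = 0.557). Without wild-type replicate 3 it was 0.96, still at an unadjusted p under 0.05. An exon of Irf7 overlaps one of Phrf1, on the opposite strand, and whether strand was used in counting is not stated by the sources. Phrf1 stood at 17.0 ± 4.67 RPKM in knockout and 18.4 ± 1.1 RPKM in wild type.

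IRF9 and STAT2 are subunits of ISGF3. Irf9 (chromosome 14: 55603571 to 55610030) stood at 8.98, 9.29 and 11.2 RPKM in knockout and at 8.69, 8.44 and 9.34 RPKM in wild type, a log2 fold change of 0.14 ± 0.26 (SE). Stat2 (chromosome 10: 128270559 to 128292849) stood at 19.4, 16.5 and 7.66 RPKM in knockout and at 17.5, 16.2 and 10.8 RPKM in wild type, a log2 fold change of -0.10 ± 0.39 (SE). Both genes overlapped between genotypes, and the sign of Stat2 turned without wild-type replicate 1 (0.03) and without Yy1 knockout replicate 3 (0.29). Irf1, a factor known as a target of interferon gamma, was on the other side of wild type from Irf7. It stood at 11.7, 22.0 and 12.4 RPKM in knockout, where replicate 2 fell among the wild-type values, and at 26.3, 21.4 and 20.6 RPKM in wild type. Its log2 fold change was -0.60 ± 0.29 (SE, unadjusted p = 0.0757, limma adjusted p = 0.679), and -0.88 without knockout replicate 2, at an unadjusted p of 0.0151. Sp100, which encodes a protein of PML nuclear bodies, stood at 36.9, 31.0 and 36.3 RPKM in knockout and at 19.2, 26.2 and 28.8 RPKM in wild type. Its libraries did not overlap between genotypes, and the log2 fold change was 0.50 ± 0.22 (SE, unadjusted p = 0.0526, limma adjusted p = 0.642).

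The IFIT genes, which lie together on chromosome 19 and encode proteins that bind viral RNA ends, had fold changes of both signs. Ifit1 (ENSMUSG00000034459, chromosome 19: 34640871 to 34650009) had the smallest p of the 37 genes. It stood at 12.1, 13.7 and 14.5 RPKM in knockout and at 4.17, 4.72 and 7.00 RPKM in wild type, with no overlap. The means were 13.4 ± 1.25 and 5.30 ± 1.50 RPKM in knockout and wild type, and the log2 fold change was 1.29 ± 0.31 (SE, unadjusted p = 0.00337, limma adjusted p = 0.429). It stayed at an unadjusted p under 0.05 without each of the 6 libraries in turn, at 1.15 to 1.49. Ifit2 (chromosome 19: 34550694 to 34576419) stood at 7.29, 8.82 and 4.20 RPKM in knockout, below each of its wild-type values of 9.13, 11 and 11.1 RPKM. Its log2 fold change was -0.64 ± 0.35 (SE, unadjusted p = 0.106, limma adjusted p = 0.720), and -0.35 without knockout replicate 3. Ifit3, between them on the chromosome (34583531 to 34588731), stood at 1.84, 3.86 and 2.67 RPKM in knockout and at 1.06, 0.711 and 6.01 RPKM in wild type, and rested on 20 to 155 reads per library. Its log2 fold change was 0.46 ± 0.74 (SE, limma adjusted p = 0.907).

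Oligoadenylate synthetases make the messenger that switches on RNase L, an enzyme that degrades RNA in infected cells. Oas2 and Oas3, neighbours on chromosome 5 that are 3244 bases apart, both stood above wild type with no overlap. Oas2 (120730333 to 120749853) stood at 17.3, 14.1 and 15.6 RPKM in knockout and at 11.6, 8.37 and 5.21 RPKM in wild type. Its log2 fold change was 0.93 ± 0.33 (SE, unadjusted p = 0.0244, limma adjusted p = 0.586). The unadjusted p was 0.0741, 0.0579 and 0.0516 without knockout replicate 1, without knockout replicate 3 and without wild-type replicate 3, the last with a log2 fold change of 0.64. Oas3 (120753098 to 120777661) stood at 10.2, 16.1 and 13.0 RPKM in knockout and at 4.82, 9.18 and 6.58 RPKM in wild type, with a log2 fold change of 0.91 ± 0.34 (SE, unadjusted p = 0.0285, limma adjusted p = 0.601). Its unadjusted p was 0.114, 0.0672 and 0.0807 without knockout replicate 2, without knockout replicate 3 and without wild-type replicate 1. The related Oasl1 and Oasl2, also side by side on chromosome 5, overlapped between genotypes. Oasl2 averaged 21.5 ± 3.38 RPKM in knockout and 21.1 ± 2.06 RPKM in wild type. Oasl1, known in mouse to restrain the translation of Irf7 mRNA, stood at 1.39, 4.19 and 0.0196 RPKM in knockout and at 4.18, 2.12 and 4.07 RPKM in wild type. The lowest Oasl1 value was 1 read, and its log2 fold change of -1.20 had an SE of 0.84. It was -0.36 without knockout replicate 3, -1.95 without knockout replicate 2 and -2.59 in limma-voom.

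**Figure D3:**
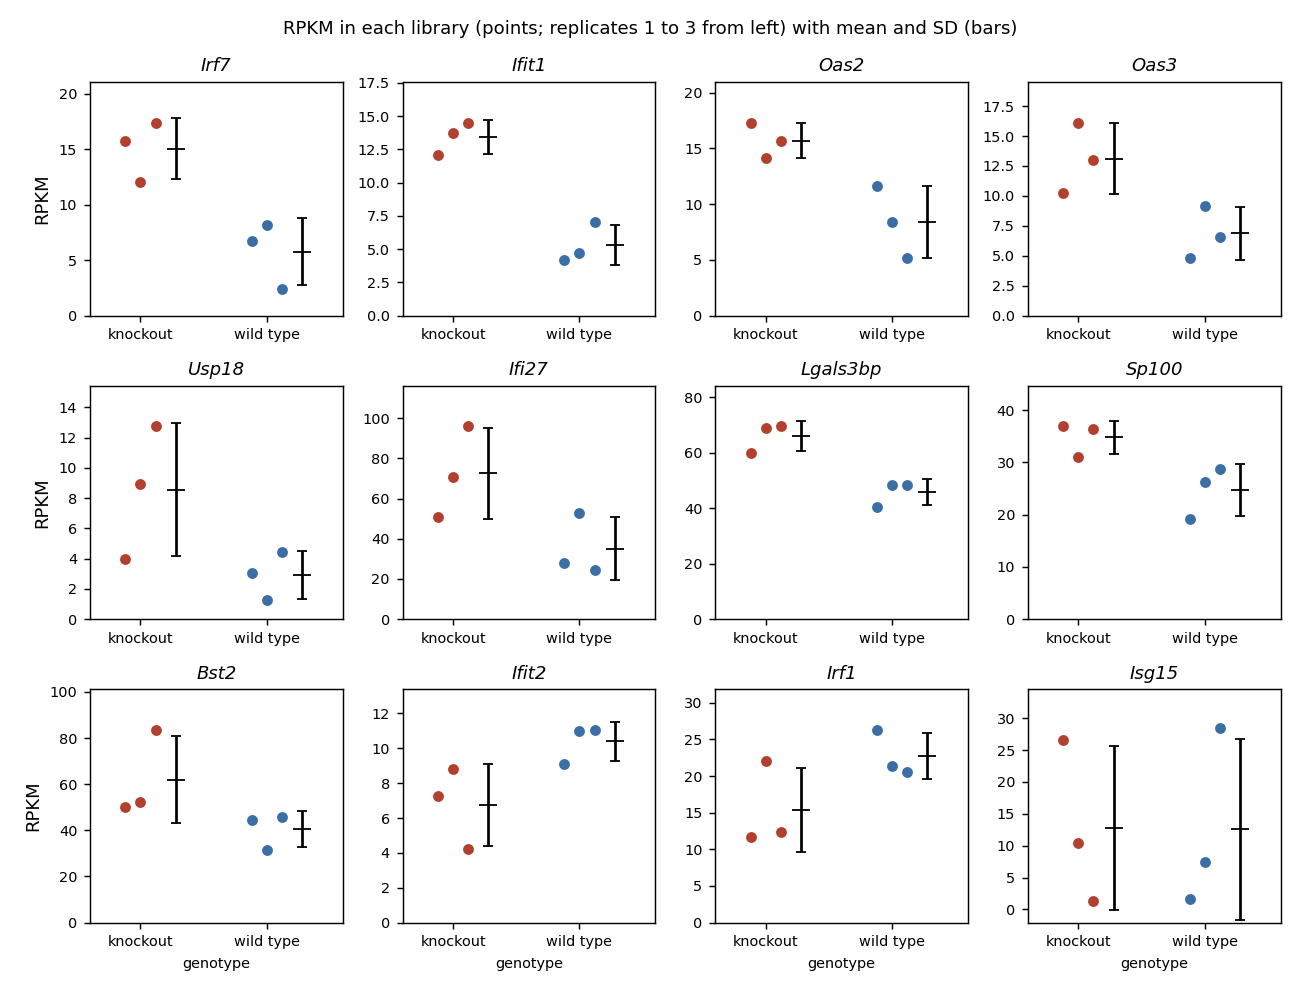
RPKM of 12 of the genes, with knockout at the left and wild type at the right of each panel; points are libraries (replicates 1 to 3 from the left) and bars are the mean and SD of 3. In the panels of Irf7, Ifit1, Oas2, Oas3, Lgals3bp, Sp100 and Bst2 all knockout points lie above all wild-type points, in that of Ifit2 all lie below, and in that of Isg15 both genotypes span nearly the whole axis.

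ISG15 is a ubiquitin-like protein that interferon-treated cells attach to other proteins, and USP18 removes it and also dampens signalling at the IFNAR receptor. Isg15 (chromosome 4: 156199424 to 156200818) stood at 26.6, 10.4 and 1.29 RPKM in knockout and at 1.64, 7.47 and 28.5 RPKM in wild type, on 16 to 350 reads per library. Both genotypes thus held a high, a middle and a low library, and the log2 fold change was 0.03 ± 1.18 (SE, limma adjusted p = 0.998). Usp18 (chromosome 6: 121245906 to 121270917) stood at 4.0, 8.91 and 12.8 RPKM in knockout and at 3.02, 1.25 and 4.46 RPKM in wild type. The lowest knockout value, of replicate 1, was under the highest wild-type value. The log2 fold change was 1.40 ± 0.58 (SE, unadjusted p = 0.0430, limma adjusted p = 0.631), and it ranged from 0.98 to 1.84 when single libraries were left out. The unadjusted p stayed under 0.05 in 2 of these 6 cases, and was 0.116 and 0.155 without knockout replicates 2 and 3 and 0.0642 and 0.127 without wild-type replicates 1 and 2.

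None of the other genes of ubiquitin and ADP-ribose modification reached an unadjusted p under 0.05. Herc6, the main ligase for ISG15 in mouse, averaged 8.90 ± 2.42 RPKM in knockout and 7.71 ± 4.92 RPKM in wild type, where replicate 3 stood at 2.08 RPKM. Trim25, a ligase that acts on the RNA sensor RIG-I, stood at 18.8, 22.9 and 22.2 RPKM in knockout and at 18.5, 15.3 and 18.6 RPKM in wild type, without overlap but with a log2 fold change of 0.28 ± 0.21 (SE). Trim30a averaged 41.1 ± 7.99 RPKM in knockout and 36.1 ± 1.24 RPKM in wild type. Parp9 and its partner Dtx3l overlap by 682 bases in opposite directions on chromosome 16, so their reads cannot be told apart there without strand. Dtx3l stood at 33.2 ± 1.20 RPKM in knockout and 32.0 ± 4.02 RPKM in wild type, and Parp9 at 15.7 ± 3.21 and 12.3 ± 4.0 RPKM in knockout and wild type. The log2 fold changes of Parp9, Dtx3l and Parp14, a mono-ADP-ribosyltransferase gene nearby, were 0.38, 0.06 and 0.15.

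The sensor genes were mostly slightly above wild type, and none of the 6 reached an unadjusted p under 0.05. Ddx58 and Ifih1, which encode the RNA sensors RIG-I and MDA5, had log2 fold changes of 0.23 and 0.32. Dhx58, whose product LGP2 regulates them, stood at 10.5, 11.7 and 13.2 RPKM in knockout and at 7.92, 7.28 and 8.21 RPKM in wild type. Its libraries did not overlap, and its log2 fold change was 0.56 ± 0.26 (SE, unadjusted p = 0.0641, limma adjusted p = 0.664). Zbp1, a sensor of Z-form nucleic acid that can start necroptosis, had the highest log2 fold change of the 37, 1.50 ± 0.84 (SE). It stood at 2.39, 9.17 and 6.32 RPKM in knockout and at 2.08, 4.52 and 0.153 RPKM in wild type, where replicate 3 held 8 reads, and the log2 fold change was 0.68 without that library. Eif2ak2, the gene of the kinase PKR, averaged 29.4 ± 8.40 RPKM in knockout and 23.2 ± 3.47 RPKM in wild type. Adar, whose product edits double-stranded RNA and so hides it from these sensors, averaged 8.31 ± 1.24 RPKM in knockout and 10.4 ± 1.92 RPKM in wild type, a log2 fold change of -0.30 ± 0.29 (SE).

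Ifitm3 and Bst2 were among the most abundant of the 37 genes. IFITM3 blocks virus entry at endosomal membranes, and stem cells are known to hold it at a constant level. Ifitm3 (chromosome 7: 141009586 to 141010770) stood at 157, 230 and 330 RPKM in knockout and at 120, 175 and 295 RPKM in wild type, so each genotype spanned more than the difference between them. The log2 fold change was 0.31 ± 0.38 (SE, limma adjusted p = 0.869). Single libraries moved it widely, to 0.0081 without wild-type replicate 1, 0.65 without wild-type replicate 3, 0.048 without knockout replicate 3 and 0.58 without knockout replicate 1. Bst2, the gene of tetherin, which holds budding virus at the cell surface, stood at 49.9, 52.3 and 83.6 RPKM in knockout (chromosome 8: 71534255 to 71537456). In wild type it stood at 44.5, 31.6 and 45.8 RPKM, all below the knockout libraries, and the log2 fold change was 0.58 ± 0.26 (SE, unadjusted p = 0.0569, limma adjusted p = 0.654), and 0.35 without knockout replicate 3. Rtp4, a chaperone gene for membrane receptors, averaged 31.4 ± 8.13 RPKM in knockout and 21.5 ± 8.30 RPKM in wild type. Rsad2, the gene of viperin, which makes a chain-terminating nucleotide, stood at 4.17, 6.97 and 10.3 RPKM in knockout and at 10.8, 8.82 and 16.1 RPKM in wild type. Its log2 fold change was -0.74 ± 0.40 (SE, unadjusted p = 0.106, limma adjusted p = 0.720), and -0.42 without knockout replicate 1.

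Of the remaining effectors, Ifi27 and Lgals3bp reached an unadjusted p under 0.05. Ifi27 (ENSMUSG00000064215, chromosome 12: 103434211 to 103440239), the gene of a small interferon-alpha-inducible protein, stood at 51.0, 70.7 and 96.0 RPKM in knockout and at 28.1, 52.9 and 24.4 RPKM in wild type. Only knockout replicate 1 and wild-type replicate 2 crossed, and the log2 fold change was 1.07 ± 0.35 (SE, unadjusted p = 0.0156, limma adjusted p = 0.559). Without knockout replicate 3 it was 0.85, at an unadjusted p of 0.0584. Lgals3bp (chromosome 11: 118392751 to 118402092), the gene of a secreted galectin-binding glycoprotein, stood at 59.9, 68.7 and 69.5 RPKM in knockout and at 40.3, 48.5 and 48.3 RPKM in wild type. Its groups were apart and tight, with a log2 fold change of 0.53 ± 0.17 (SE, unadjusted p = 0.0151, limma adjusted p = 0.559). Without knockout replicate 2 the unadjusted p was 0.0570. The exonuclease gene Isg20 and the genes Ifi35, Ifi44 and Samd9l had log2 fold changes of 0.27, 0.27, 0.42 and 0.35, with overlap in each. Xaf1, an antagonist of the apoptosis inhibitor XIAP, averaged 4.98 ± 2.52 RPKM in knockout and 3.97 ± 2.96 RPKM in wild type, where replicate 3 held 46 reads. Its log2 fold change of 0.53 became -0.26 without that library.

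**Figure D4:**
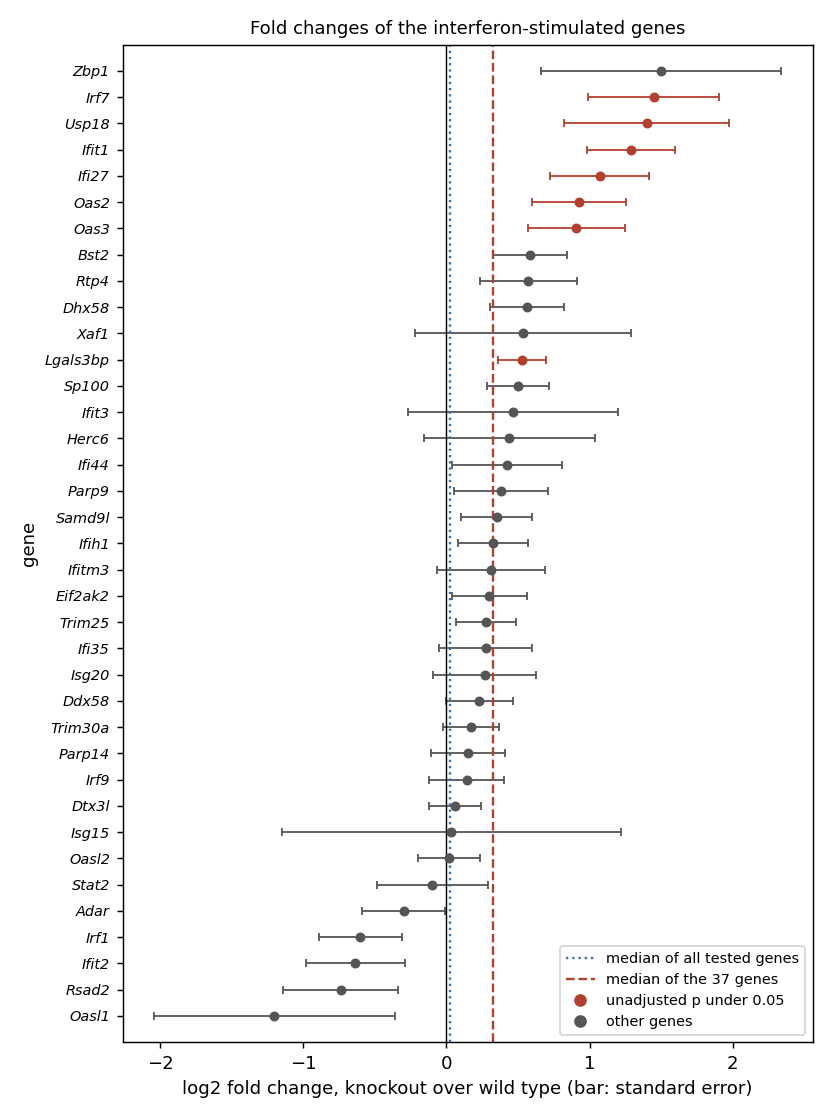
Log2 fold change (knockout over wild type) for each of the 37 genes (points) with its standard error (bars), ordered by size; red points had an unadjusted p under 0.05. The dashed line is the median of the 37 genes, 0.32, and the dotted line that of all tested genes, 0.02; 31 of the 37 points lie above 0.

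The spread within a genotype differed widely among these genes. The coefficient of variation over the 3 libraries had a median of 25.9% in knockout and 23.9% in wild type over the 37 genes, against 27.8% and 35.1% over all tested genes. It was 100% in knockout and 113% in wild type for Isg15, and 3.62% in knockout and 12.6% in wild type for Dtx3l. The mean level ranged over the 37 genes from 1.87 RPKM for Oasl1 to 239 RPKM for Ifitm3 in knockout, and from 2.25 RPKM for Zbp1 to 197 RPKM for Ifitm3 in wild type.

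A second list of interferon-stimulated genes, with none of the 37 on it, lay at the level of all genes. It held 65 symbols, 60 of its rows passed the filter, 31 of these lay above 0 and 29 below, and the median log2 fold change was 0.02. At an unadjusted p under 0.05, 3 were higher (Oas1g, Ifit1bl1 and Lgals9), or 5%, near the background of 4.73%. At that threshold 1 was lower (Shisa5, background 3.06%), and none passed in limma after adjustment. Oas1g, a synthetase gene next to those above, stood at 8.37, 14.7 and 19.1 RPKM in knockout and at 4.07, 5.38 and 10.6 RPKM in wild type, a log2 fold change of 1.05 ± 0.45 (SE). Ifit1bl1, a relative of Ifit1 on chromosome 19, stood at 4.65, 1.33 and 3.62 RPKM in knockout and at 0.170, 0.764 and 0.119 RPKM in wild type. Mx1, whose promoter drives the Cre transgene, stood at 1.36, 2.81 and 2.46 RPKM in knockout and at 0.0212, 5.41 and 2.19 RPKM in wild type, with overlap. The core of the response element was found in 31 of the 50 genes of this list that had a promoter window (62%). Both lists were chosen with results of these data known, and the difference between them was not tested.

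**Figure D5:**
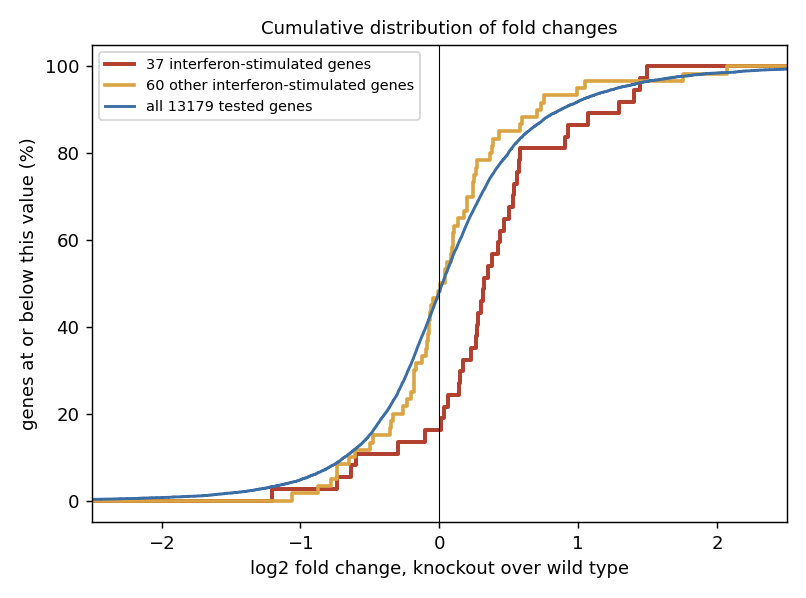
Cumulative share of genes (y axis, percent) at or below each log2 fold change (x axis, knockout over wild type) for the 37 interferon-stimulated genes, the 60 tested genes of the second list and all 13179 tested genes. The curve of the 37 genes crosses its midpoint at 0.32 and the other curves cross theirs at 0.02.

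The lists of genes upstream of the response held members on both sides of wild type. Of the 15 genes of receptor signalling, 5 lay above 0 and 10 below, and their median was -0.17 on the log2 scale. Among them, 1 was higher at an unadjusted p under 0.05 (background 4.73%) and 1 lower (background 3.06%). Socs1, a feedback inhibitor of JAK kinases, stood at 5.37, 1.64 and 2.94 RPKM in knockout and at 1.48 RPKM in wild-type replicate 2, and it was listed at 0 in the other wild-type libraries. Stat3 was lower, at 11.5, 19.3 and 12 RPKM in knockout and 23.4, 22.5 and 26.2 RPKM in wild type (unadjusted p = 0.0191, limma adjusted p = 0.567). Of 12 tested genes of nucleic acid sensing, 7 lay above 0, with a median of 0.09. Mb21d1, the gene of the DNA sensor cGAS, stood at 14.2, 12.4 and 12.1 RPKM in knockout and at 8.93, 8.95 and 4.34 RPKM in wild type. Rnaseh2b, a subunit gene of an enzyme that removes ribonucleotides from DNA, was also higher at an unadjusted p under 0.05, and the kinase gene Ikbke was lower. With Mb21d1, 2 of the 12 were thus higher and 1 lower, against backgrounds of 4.73% and 3.06%. The 12 interferon ligand genes on the list were not analysed here.

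Several facts of the libraries stand beside these values. Reads recovered in the listed genes were estimated at 19473200, 19495400 and 21757000 in knockout and 15103000, 18460000 and 17346500 in wild type. Each sum is above the library size implied by the RPKM value of 1 read, so the sums are not exact depths. Those sizes were 17402800, 17496200 and 19535500 in knockout and 12920200, 16112100 and 14786800 in wild type. From 373 to 1075 genes were listed at 0 in knockout libraries and 747 to 1991 in wild-type libraries, the last of these in replicate 3. Yy1 itself stood at 36.2, 16.6 and 28.5 RPKM in the libraries labelled knockout and at 31.6, 42.3 and 52.1 RPKM in wild type (log2 fold change -0.66, limma adjusted p = 0.680), and its log2 fold change was -0.35 without knockout replicate 2. The labels do not say which part of Yy1 is deleted, and the value of the library labelled knockout replicate 1 fell between wild-type values. With that library and wild-type replicate 3 both left out, a check added after the data were examined, 29 of the 37 genes lay above 0 and 10 were higher at an unadjusted p under 0.05, against 4.31% of all tested genes in the same fit. The summed level of 8 cell division genes was 348 to 377 RPKM in knockout and 97.6 to 167 RPKM in wild type. All 8 lay above wild type without overlap, against a background of 7.63%, and their part in the values above was not tested. All 12 stem cell markers were tested, and Kit and Hlf were among those lower at an unadjusted p under 0.05 in limma. Granulocyte markers summed to 28.3 to 284 RPKM in knockout and 4.22 to 151 RPKM in wild type, over 6 of 9 genes, and Elane was listed at 0 in 4 libraries. Monocyte and macrophage markers summed to 69.8 to 97.3 RPKM in knockout and 80.0 to 121 RPKM in wild type, over 5 of 12 genes and nearly all from Lyz2, the only one of the 5 to pass the filter on low values. The other 4 were low, with a higher mean in knockout for each. Mpeg1, a macrophage marker, stood at 1.34, 0.831 and 0.283 RPKM in knockout and at 0.0179, 0.0430 and 0.0156 RPKM in wild type, without overlap. C1qb and Ccr2 were listed at 0 in knockout replicate 1 and in all 3 wild-type libraries, and C1qb reached 3.36 RPKM in knockout replicate 2. Of 8 plasmacytoid dendritic cell markers, Bst2, which is 1 of the 37, and Tcf4 were measured, and the 6 B cell markers were not analysed here. Markers of T and NK cells summed to at most 0.854 RPKM in knockout and 3.02 RPKM in wild type. In bulk RNA, fewer cells of a type and less RNA per cell cannot be told apart, and the part of other cells in these values was not tested.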

How the data were processed

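RNA was purified from sorted marrow cells with the RNeasy Micro kit and made into libraries with the Ovation RNA-Seq System V2, which amplifies small amounts of RNA, for an Illumina HiSeq instrument, per the labels' protocols. The submitters' processing notes name the mm10 genome, Subread, featureCounts, edgeR and limma, without versions or settings. The deposited library columns were taken as the authors' RPKM values. Their header names no unit, and with exonic lengths of GENCODE release M21 (GRCm38) at least 71.7% of the non-zero values of each library were whole multiples of 1 read, within 0.02 reads. Of the 37 genes, 29 were whole in all 6 libraries, and the reads of the rest are estimates. The deposited log2 fold change and the deposited p-value columns hold a comparison made by the authors, per the file headers.

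limma 3.58.1 in R 4.3.3 was run on log2(RPKM + 0.5) with a variance trend, over the 13179 genes that reached 1 RPKM in 3 or more libraries, with Benjamini-Hochberg adjustment over all of them. The fit was also run on simulated reads whose spread was assumed and not estimated from these libraries. That run does not speak for the noise of these libraries. The members and lists were chosen with earlier results of these data known. Genes chosen to be given with each library's value, log2 fold change and SE were those with an unadjusted p under 0.05 and those whose genotypes did not overlap. To these came 10 anchors of the pathway (Irf7, Irf9, Stat2, Isg15, Usp18, Ifit1, Ifit3, Oas2, Bst2 and Ifitm3). An unadjusted p is printed for only some of these genes. Values of Irf1, Rsad2, Zbp1 and Oasl1, and of single genes of the other lists, were added after they were seen. The alternatives tried were other pseudocounts, filters, scaling, no variance trend, a replicate block, limma-voom on recovered reads and leaving out each library. Amplified reads are not independent molecules. Exons of 15 of the 37 genes overlap another annotated gene. Results for some items of the marker and pathway lists are not reported here.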

Additional observations from a re-analysis of the deposited data

How the results depend on the processing

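None of the 37 genes passed an adjusted threshold under any of the 16 alternatives, and the lowest adjusted p was 0.179, in limma-voom with a replicate block. Of 587 alternative values of these genes, 571 kept their sign. The number of genes called among all tested was 6 in limma-voom, 73 in limma-voom with a replicate block and 0 to 1 when single libraries were left out. Leaving out single libraries gave 4 to 8 of the 37 genes at an unadjusted p under 0.05, 3 to 8 of them higher. In the same fits, 713 to 1197 of all 13179 tested genes had an unadjusted p under 0.05. The share of all tested genes higher at that threshold was 2.86% to 5.75%. The median log2 fold change of the 37 genes was 0.25 to 0.42 in these fits. That median was 0.41 in limma-voom, 0.37 in limma-voom with a replicate block and 0.27 with wild-type replicate 3 and Yy1 knockout replicate 1 left out. With the block alone, which pairs libraries by the replicate number of their titles, it was 0.32, and 0 genes were called. In that fit 9 of the 37 genes had an unadjusted p under 0.05, all of them higher. Of all 13179 tested genes, 1040 had an unadjusted p under 0.05 in the same fit, and 4.8% were higher at that threshold. Same-numbered libraries deviated together only weakly, with correlations across genes of 0.02, 0.06 and 0.05, against -0.08 to 0.04 for differently numbered libraries. Wild-type replicate 1 did not correlate best with its own number. Such correlations cannot show whether same-numbered libraries were handled together, so the pairing stays undecided. The deposited column names number knockout replicate 3 and wild-type replicate 3 differently, so that pair matches by sample title only. The median of the receptor signalling list was -0.28 to -0.10 with single libraries left out and -0.30 with wild-type replicate 3 and Yy1 knockout replicate 1 left out, and that of the sensing list was -0.16 to 0.18. Signs turned for Stat2 (-0.35 to 0.29 without single libraries, 0.010 in limma-voom with a replicate block), Ifit3 (-0.00078 to 1.21), Oasl2 (-0.080 to 0.14), Isg15 (-0.91 to 1.12, and -0.15 in limma-voom), Herc6 (-0.26 to 0.83, and -0.11 with both libraries left out), Dtx3l (-0.021 to 0.15), Xaf1 (-0.26 to 1.02, and -0.60 with both left out) and Mx1 (-0.60 to 1.15, and -0.26 in limma-voom with a replicate block). The cause was not tested. Isg15, Oasl1, Ifit3, Zbp1, Xaf1 and Usp18 each held under 100 reads in at least 1 library, so their lowest values rest on few reads.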
